A study of Glycine max with 6 samples.

Results

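Nitrate enters root cells at low external concentrations through the high-affinity nitrate transporters of the NRT2 family, which were examined here in soybean roots together with their NRT3-type (NAR2-type) partner proteins. Members were the genes whose deposited description names a high-affinity nitrate transporter, together with 4 genes taken by identifier, namely *GmNRT2.4-1* (Glyma.12G176900), *GmNRT2.5* (Glyma.18G141900), *GmNRT2.4-2* (Glyma.11G195200) and *GmNRT2* (Glyma.13G323800). This gave 7 of the 48667 genes listed in any library. Of these, 6 were found by description and 1, *GmNRT2*, only by identifier, since its description reads NRT2 protein. There were 5 genes of NRT2 type and 2 of NRT3 type.

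RNA was sequenced from soybean (*Glycine max*) roots after 30 days of hydroponic culture at pH 5.8 (control) or pH 4.2 (acid), with 3 libraries in each pH-treatment. Sample titles give the genotype as YC03-3, whereas the study's methods name Huachun 6, so the genotype is uncertain, and no mutant or transgene was involved. In both pH-treatments the nutrient solution held nitrate together with ammonium, its pH was set daily with KOH or H2SO4, and it was renewed weekly. The roots of 2 plants were pooled for each library, so that differences between single plants cannot be seen, and libraries are called control 1 to 3 and acid 1 to 3 by their replicate numbers.

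NRT2 proteins are nitrate/proton symporters of the plasma membrane and belong to the major facilitator superfamily. In *Arabidopsis*, most of them need the small partner protein NRT3.1, also called NAR2.1, to reach the plasma membrane and carry nitrate, and NRT2.1 accounts for most high-affinity uptake of the root. *Arabidopsis* NRT2.4 and NRT2.5 are known as genes of nitrogen starvation, and NRT2 transcripts in general are lowered by ample nitrogen, ammonium included. None of these roles was measured here.

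The primers designed by the study for these genes are shown because they hold stretches that several NRT2 genes share. Sequences are written 5′ to 3′. Capitals in the reverse primers mark a run of 19 bases that 3 of them hold, and capitals in the forward primers mark the bases at which *GmNRT2.4-1* and *GmNRT2.4-2* differ.
GmNRT2.4-1 forward: agggcttgCgaatggAactg
GmNRT2.4-2 forward: ggcttgTgaatggGactgct
GmNRT2.4-1 reverse: gGCATACCATAGCACCTTGGaa
GmNRT2.4-2 reverse: GCATACCATAGCACCTTGGaga
GmNRT2 reverse: tatgGCATACCATAGCACCTTGG
GmNRT2.5 reverse: gatgaaggaccagaaaacatgc
The forward primers of *GmNRT2.4-1* and *GmNRT2.4-2* overlap over 18 bases and differ there by C7T and A14G, with *GmNRT2.4-1* given first and positions counted from 1 at the first base of the overlap. The reverse primer of *GmNRT2.5* does not hold the shared run. Reads that fit several genes are divided by the estimation of expected counts and leave fractional values. For the 7 members, all 42 values, including 1 unlisted value taken as 0, were exactly whole numbers, as were 85.7% to 87.2% of the values listed in a library, and each member is listed with 1 transcript.

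Library totals lay between 9137226 and 9358750 expected counts, so depth was nearly even. Levels between libraries are given as CPM (counts scaled to a common library total) with library sizes adjusted by the TMM method, and levels between genes as FPKM, which also corrects for transcript length. On the first principal component of all genes tested, which held 43.9% of the variance, control 2 lay at -11.0, nearer to the acid libraries (-68.4 to -20.8) than to the other controls (54.5 and 96.8). Results are therefore also given without control 2. Casparian strip membrane protein genes, which mark the root endodermis, were present in every library (summed FPKM of 11 genes 38.3 to 122 in control and 101 to 125 in acid). Leaf marker genes, 37 in number, also gave 1295 to 2082 summed FPKM in control and 1493 to 2354 in acid, with overlapping groups, none of them called, and their part in the results was not tested.

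The comparison of pH 4.2 with pH 5.8 asks how long-term acidity changed the transcripts of nitrate uptake. A gene was called when edgeR's quasi-likelihood test gave a Benjamini-Hochberg adjusted p under 0.05 and the change was at least 2-fold. By this rule 4 of the 5 NRT2 genes fell at pH 4.2, by 14.0-fold to 290-fold, neither NRT3-type gene was called, and the fifth NRT2 gene was too low to be tested. Of all 33490 genes tested, 0.558% were called, 0.331% lower and 0.227% higher. With the replicate number as a block, the same 4 members were called lower, against 0.125% of all genes tested. The 4 called members are the same 4 genes that were taken by identifier, which the study had named from these same libraries, so their count is not independent evidence of direction, and *GmNRT2.4-1* passed the filter on low counts through its control libraries alone. Of the 6 tested members 0 were called higher, either by edgeR or by DESeq2, and all 6 had a negative log2 fold change with an unadjusted p under 0.05, as did 7.61% of all genes tested. In the 4 called genes every acid library was below every control library, which held for 9.25% of all genes tested. Since these 4 genes had been named from the same libraries, that separation is not independent evidence either. In whole roots, fewer cells that express a gene and less RNA of it per cell cannot be told apart.

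**Figure D1:**
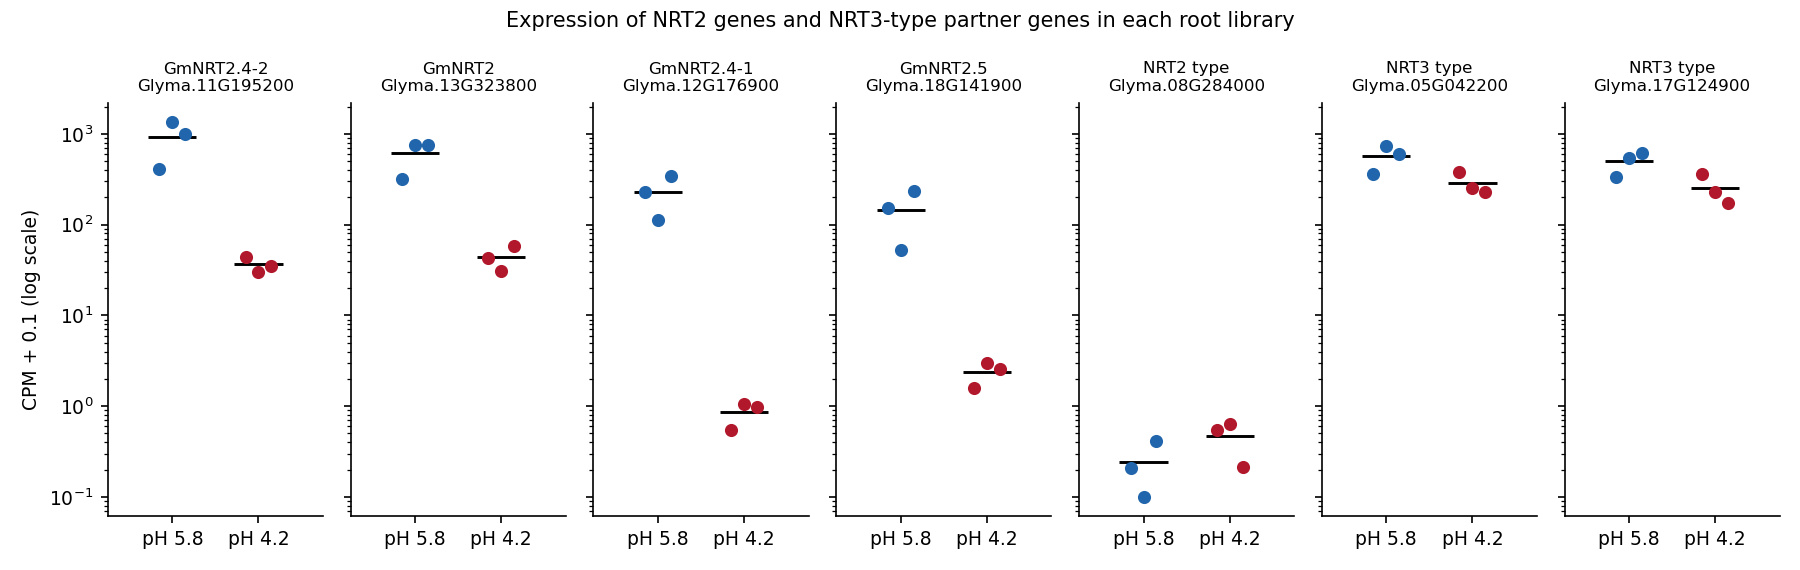
CPM plus 0.1 on a log scale for each of the 7 members, with a point per library (blue, pH 5.8; red, pH 4.2) and a line at the mean of 3 libraries. The groups are apart for *GmNRT2.4-2*, *GmNRT2*, *GmNRT2.4-1* and *GmNRT2.5*, whereas they overlap for Glyma.08G284000, which lies near the limit of detection, and for both NRT3-type genes.

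*GmNRT2.4-2* and *GmNRT2* were the most abundant NRT2 transcripts. *GmNRT2.4-2* (Glyma.11G195200, described as high affinity nitrate transporter 2.4) reached 415, 1348 and 994 CPM in control 1 to 3 and 44.0, 30.4 and 35.2 CPM in acid 1 to 3. The groups did not overlap, and control 1, the lowest control, was still 9.42-fold above acid 1, the highest acid library. Mean levels were 919 ± 471 CPM (SD, n = 3) at pH 5.8 and 36.5 ± 6.94 CPM (SD, n = 3) at pH 4.2. Its log2 fold change was -4.65 (SE 0.50, 95% interval -5.79 to -3.51), a 25.2-fold decrease, with an adjusted p of 0.00990 by edgeR's quasi-likelihood test. This gene ranked 502, 42 and 77 by FPKM among the genes of control 1 to 3 and 6343, 8731 and 7504 in acid 1 to 3. The call was lost when an acid library was left out, with adjusted p of 0.0671, 0.127 and 0.0523 without acid 1, acid 2 and acid 3, while the log2 fold change stayed between -5.00 and -4.27 over all 6 fits that left out a library.

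*GmNRT2* (Glyma.13G323800, RefSeq symbol NRT2) stood at 316, 762 and 754 CPM in control 1 to 3 and at 42.3, 31.1 and 57.4 CPM in acid 1 to 3. As for *GmNRT2.4-2*, control 1 was the lowest control, here 5.50-fold above the highest acid library. The means were 611 ± 255 CPM (SD, n = 3) and 43.6 ± 13.2 CPM (SD, n = 3). The log2 fold change of *GmNRT2* was -3.81 (SE 0.45, 95% interval -4.83 to -2.78), a 14.0-fold decrease with an adjusted p of 0.0159 in the same fit, and it was the smallest change among the 4 called members. Its adjusted p was 0.0943 without acid 1 and 0.133 without acid 2.

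The largest decrease was that of *GmNRT2.4-1* (Glyma.12G176900, described as high affinity nitrate transporter 2.4-like). Its transcripts gave 2119, 1048 and 3261 expected counts in control 1 to 3, against 4, 9 and 8 in acid 1 to 3, or 230, 112 and 339 CPM against 0.453, 0.955 and 0.890 CPM. The acid libraries thus held a few reads each, close to the limit of 3 counts that a count of 0 allows, and the lowest control was 118-fold above the highest acid library. Mean levels were 227 ± 114 CPM (SD, n = 3) at pH 5.8 and 0.766 ± 0.273 CPM (SD, n = 3) at pH 4.2. *GmNRT2.4-1* had a log2 fold change of -8.18 (SE 0.57, 95% interval -9.48 to -6.89), a 290-fold decrease with an interval of 118-fold to 713-fold and an adjusted p of 0.00248 by edgeR. It passed the filter on low counts only through its control libraries, with no acid library at 10 counts, so that among genes that passed it had to differ. Without a filter its adjusted p by edgeR was 3.00e-05. That setting called 323 genes over all genes, against 187 with the filter, so the lower value is no added support. It was called in all 6 fits that left out a library, with adjusted p between 0.000388 and 0.0449.

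*GmNRT2.5* (Glyma.18G141900, described as high affinity nitrate transporter 2.5-like) followed with 153, 52.0 and 234 CPM in control 1 to 3 and 1.47, 2.87 and 2.45 CPM in acid 1 to 3. Control 2 was the lowest control for *GmNRT2.5*, as it was for *GmNRT2.4-1*, and lay 18.2-fold above the highest acid library. Means were 146 ± 91.2 CPM (SD, n = 3) and 2.26 ± 0.715 CPM (SD, n = 3), so that this gene also had the widest relative spread of the 4 among controls, with a coefficient of variation of 62.3%. The log2 fold change was -6.00 (SE 0.61, 95% interval -7.40 to -4.61), a 64.2-fold decrease with an adjusted p of 0.00917 by edgeR. Its adjusted p was 0.0559 without acid 1 and 0.0886 without acid 2.

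The second gene described as high affinity nitrate transporter 2.5-like, Glyma.08G284000, was hardly expressed. It gave 1, 0 and 3 expected counts in control 1 to 3 and 4, 5 and 1 in acid 1 to 3. No library reached the count of 10 that the filter asks for, so the gene was not tested, and no fold is given because the values lie at or near 3 counts, equal to 0.312 to 0.340 CPM in these libraries. A difference between pH-treatments was not detectable at this depth.

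Without control 2, the library nearest to the acid libraries, all 4 calls were kept. Over all genes, 1122 were called in that fit, against 187 with all 6 libraries. The lower adjusted p-values of the members are therefore no added support. The log2 fold changes were then -4.27 for *GmNRT2.4-2*, -3.61 for *GmNRT2*, -8.50 for *GmNRT2.4-1* and -6.40 for *GmNRT2.5*, and the adjusted p-values by edgeR were 0.00518, 0.00913, 0.000388 and 0.000793. In the controls the 4 genes formed pairs by where they were lowest. *GmNRT2.4-2* and *GmNRT2* were lowest in control 1 and high in control 2, whereas *GmNRT2.4-1* and *GmNRT2.5* were lowest in control 2 and highest in control 3.

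The NRT3-type partner genes are both described as high-affinity nitrate transporter 3.1-like, and were assigned to this type by that description alone. Their deposited orthology term is not that of NRT2. In *Arabidopsis*, most NRT2 transporters depend on a small protein of NRT3 type. Glyma.05G042200 stood at 358, 745 and 602 CPM in control 1 to 3 and at 378, 250 and 230.3 CPM in acid 1 to 3. Acid 1 was above control 1, so the groups overlapped, while acid 2 and acid 3 were below all controls. The means were 568 ± 196 CPM (SD, n = 3) and 286 ± 80.0 CPM (SD, n = 3). Its log2 fold change of -0.99 (SE 0.36, 95% interval -1.81 to -0.16) did not pass the test, with an adjusted p of 0.316 by edgeR and 0.0998 by DESeq2.

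The other partner gene, Glyma.17G124900, showed nearly the same values, with 332, 547 and 609.9 CPM in control 1 to 3 and 362, 228 and 174 CPM in acid 1 to 3. Again acid 1 exceeded control 1 and the groups overlapped. Means were 496 ± 145 CPM (SD, n = 3) and 255 ± 96.7 CPM (SD, n = 3). The log2 fold change was -0.96 (SE 0.37, 95% interval -1.81 to -0.11), and the adjusted p was 0.348 by edgeR and 0.147 by DESeq2. The intervals of both genes, which are not adjusted over all genes, do not include 0 and reach decreases of 3.52-fold and 3.51-fold, so that these data do not show the partner transcripts to be unaffected. Both remained among the most abundant transcripts of the root at pH 4.2, at FPKM ranks 166 to 421 for Glyma.05G042200 and 186 to 628 for Glyma.17G124900.

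**Figure D2:**
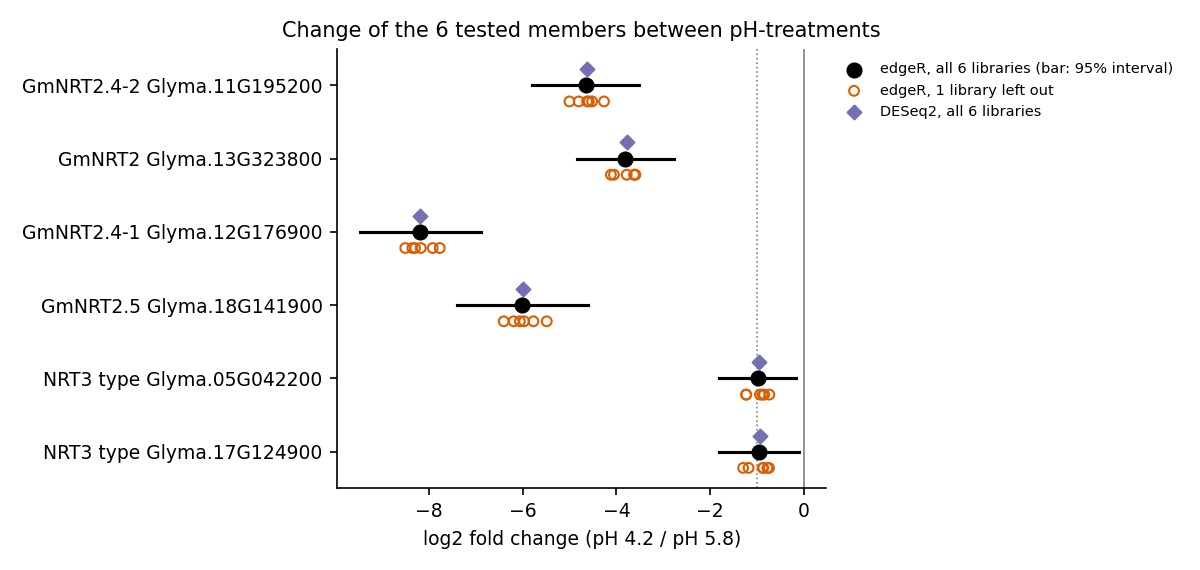
Log2 fold change (pH 4.2 over pH 5.8) of the 6 tested members by edgeR (black, with the 95% interval), by edgeR with 1 library left out (orange) and by DESeq2 (purple), with a dotted line at the 2-fold limit. The intervals of the 4 called NRT2 genes lie below -2.78, and those of both NRT3-type genes lie between -1.81 and -0.11, on either side of the 2-fold limit.

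Per transcript length, the partner genes and *GmNRT2.4-2* were the most abundant members at pH 5.8. Mean FPKM in the controls was 572 ± 201 for Glyma.05G042200, 494 ± 151 for Glyma.17G124900 and 460 ± 237 for *GmNRT2.4-2* (SD, n = 3). It was 311 ± 133 for *GmNRT2*, 126 ± 64.5 for *GmNRT2.4-1* and 72.0 ± 45.6 for *GmNRT2.5* (SD, n = 3). The range of each gene over the 3 controls overlapped that of its neighbour in this order, and only Glyma.08G284000, at 0 to 0.16 FPKM, stood apart. Within each control library, however, *GmNRT2.4-2* was above *GmNRT2*, *GmNRT2* above *GmNRT2.4-1* and *GmNRT2.4-1* above *GmNRT2.5*. At pH 4.2 the order of FPKM levels split into levels far apart. The partner genes had 284 ± 72.6 and 250 ± 89.3 FPKM, *GmNRT2* and *GmNRT2.4-2* had 21.8 ± 6.48 and 17.9 ± 3.00 FPKM, and *GmNRT2.5* and *GmNRT2.4-1* had 1.10 ± 0.372 and 0.42 ± 0.157 FPKM (SD, n = 3). The FPKM ranges of *GmNRT2* and *GmNRT2.4-2* overlapped over the acid libraries, those of *GmNRT2.5* and *GmNRT2.4-1* did not, and *GmNRT2.4-1* overlapped Glyma.08G284000, which had 0.06 to 0.27 FPKM.

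Since NRT2 genes share stretches of sequence, their transcripts were also summed. The 5 NRT2 genes together gave 562, 1145 and 1203 FPKM in control 1 to 3 and 43.1, 33.5 and 47.8 FPKM in acid 1 to 3, so that the mean was 23.4-fold lower at pH 4.2. The NRT2 genes took 0.111%, 0.227% and 0.238% of all counts in control 1 to 3, and 0.00858%, 0.00664% and 0.00942% in acid 1 to 3. Every acid library was far below every control in the sum. This follows from the called NRT2 genes, which make up nearly all of it, and is not further evidence. The 2 NRT3-type genes together gave 678, 1292 and 1226 FPKM in control 1 to 3 and 714, 486 and 403 FPKM in acid 1 to 3, a mean 1.995-fold lower at pH 4.2 with overlapping groups.

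In the controls the partner and transporter transcripts were nearly equal in FPKM, with an NRT3 to NRT2 ratio of 1.21, 1.13 and 1.02 in control 1 to 3. At pH 4.2 this ratio was 16.6, 14.5 and 8.42 in acid 1 to 3, and its mean was 11.8-fold higher. In the controls the ratio varied far less than either sum, although both sums were far lower in control 1 than in control 2 and control 3. No test is given for the sums and ratios, since a two-sided exact permutation test of 3 libraries against 3 cannot go below p = 0.1. The ratio of the partner genes to each other (Glyma.05G042200 over Glyma.17G124900) lay between 0.997 and 1.38 in control and between 1.06 and 1.34 in acid, so that the pair kept about the same proportion in both pH-treatments.

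**Figure D3:**
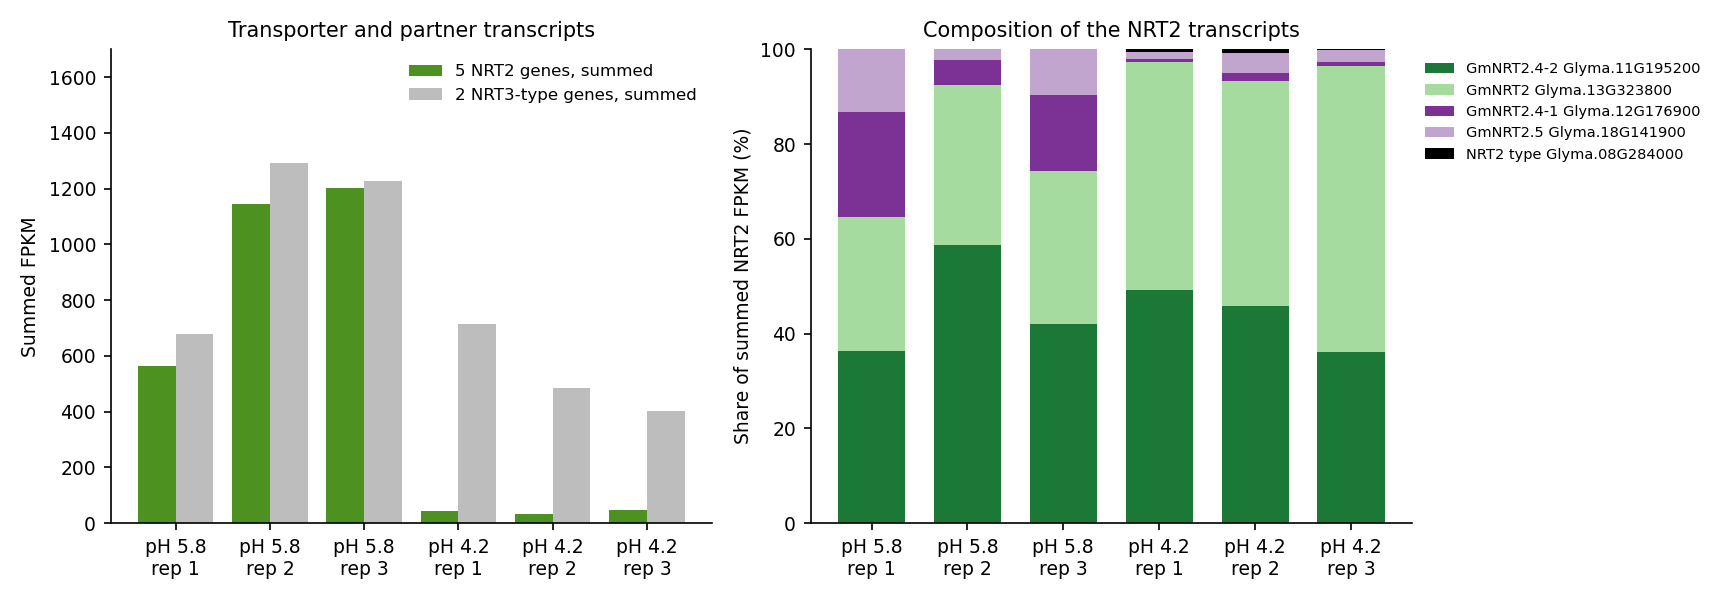
Left, summed FPKM of the 5 NRT2 genes and the 2 NRT3-type genes in each library; right, the share (%) of each gene in the summed NRT2 FPKM. NRT2 sums were 562 to 1203 FPKM at pH 5.8 and 33.5 to 47.8 at pH 4.2, and the combined share of *GmNRT2.4-1* and *GmNRT2.5* is visibly smaller in the acid libraries than in control 1 and control 3.

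The make-up of the NRT2 transcripts differed as well. *GmNRT2.4-1* made up 22.3%, 5.42% and 15.9% of the summed NRT2 FPKM in control 1 to 3 and 0.557%, 1.58% and 1.02% in acid 1 to 3, with no overlap. *GmNRT2.5* made up 13.2%, 2.22% and 9.68% in control 1 to 3 and 1.60%, 4.24% and 2.47% in acid 1 to 3, and here control 2 lay among the acid libraries. The share of *GmNRT2* was 28.1% to 33.7% in control and 47.6% to 60.2% in acid, although its level fell. *GmNRT2.4-2* held 36.3% to 58.6% in control and 36.2% to 49.2% in acid, so that its share overlapped between pH-treatments.

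Within the pairs of genes of like level, the proportions differed between pH-treatments. *GmNRT2.4-1* had 1.70, 2.45 and 1.64 times the FPKM of *GmNRT2.5* in control 1 to 3, and 0.348, 0.373 and 0.415 times in acid 1 to 3. Thus *GmNRT2.4-1* was the higher of this pair in every control and the lower in every acid library. The acid ratios rest on few reads, with 4, 9 and 8 expected counts of *GmNRT2.4-1* against 13, 27 and 22 of *GmNRT2.5* in acid 1 to 3. *GmNRT2.4-2* had 1.29, 1.74 and 1.30 times the FPKM of *GmNRT2* in control 1 to 3, and 1.02, 0.960 and 0.602 times in acid 1 to 3. These ratios did not overlap either, but *GmNRT2.4-2* was still slightly above *GmNRT2* in acid 1 and was the lower of the pair only in acid 2 and acid 3. Neither the shares nor the ratios were tested. A two-sided exact permutation test of 3 libraries against 3 cannot go below p = 0.1. The shares also add up to a whole, so they are not independent of each other.

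Another 2 genes carry the orthology term of NRT2 in the deposited annotation but no matching description, and were not counted as members. Glyma.12G078900, described as a hypothetical protein, gave 21, 54 and 59 expected counts in control 1 to 3 and 0 in each acid library. Its mean of 4.74 CPM at pH 5.8 lay 14.3-fold above the limit of 3 counts per acid library. This figure leaves out the spread among the controls, and control 1, at 2.28 CPM, lay nearer to the limit. It passed the filter on low counts only through its control libraries. Its adjusted p by edgeR was 0.0342, but it was 0.0734 with the replicate block, and the gene was called in 2 of the 6 fits that left out a library (adjusted p 0.0245 to 0.134). The fitted fold change is no bound because it depends on the prior count. Glyma.11G057500, described as uncharacterized, stood at 27.3 ± 2.54 CPM at pH 5.8 and 26.3 ± 2.89 CPM at pH 4.2 (SD, n = 3). Its log2 fold change was -0.05 (95% interval -0.47 to 0.36, adjusted p 0.927 by edgeR).

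The genes with the pattern most like the 4 called members were sought over the 6 libraries, by the root mean square difference of mean-centred log2(CPM + 0.5) from the average of these 4 genes. A smaller value means a closer pattern. The closest were Glyma.06G103900 (sugar transport protein 5-like, 0.211), Glyma.06G222500 (2-alkenal reductase-like, 0.300), Glyma.20G022500 (with the orthology term of a zinc transporter, 0.481), Glyma.15G021800 (a probable receptor-like kinase, 0.561) and Glyma.02G005800 (the phosphate transporter gene *GmPT1*, 0.664). The members themselves lay at 0.555 for *GmNRT2.5*, 0.661 for *GmNRT2.4-2*, 0.875 for *GmNRT2* and 1.11 for *GmNRT2.4-1*, and the partner genes lay farther away, at 2.21 and 2.20. These points share the same 6 libraries and were chosen for likeness, so no test applies. Glyma.06G103900 stood at 13.4, 11.05 and 23.1 CPM in control 1 to 3 and had 0 counts in each acid library, and *GmPT1* had 2, 2 and 4 counts in acid 1 to 3. At such low counts the added 0.5 CPM limits the drop on the log2 scale, so the order of likeness depends in part on it.

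Other genes of nitrate and ammonium transport, reduction and signalling were taken by words in their descriptions, as 10 lists with 170 genes, of which 120 were tested. Of these, 0 were called higher and 2 lower by edgeR, that is 1.67% of those tested, against 0.558% of all genes tested. Over all genes tested, 0.227% were called higher and 0.331% lower. The share in the lists rests on 2 genes, and its difference from that of all genes was not tested. The median log2 fold change of the listed genes was -0.09, against a median of -0.0027 over all genes tested. At an unadjusted p under 0.05, 13 of the 120 listed genes tested were higher and 24 lower. Of all genes tested, 4.21% were higher and 7.61% lower at this threshold. DESeq2 called 7 of the listed genes higher and 7 lower, and over all genes it tested it called 1.22% higher and 1.55% lower. The NRT1/PTR (NPF) family, which holds the low-affinity and dual-affinity nitrate transporters, had 63 genes tested and none called by edgeR, with 14 at an unadjusted p under 0.05, 2 called higher and 2 lower by DESeq2, and a median log2 fold change of -0.36. Ammonium transporters had 12 genes tested, with 1 called lower by edgeR and 2 by DESeq2, and NIN-like regulators had 9 genes tested, with 1 called lower by edgeR and 2 lower and 1 higher by DESeq2.

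The called ammonium transporter was Glyma.01G123400 (ammonium transporter 2-like), with 13.02, 3.22 and 11.9 CPM in control 1 to 3 and 0.226, 0.743 and 0.223 CPM in acid 1 to 3. As for *GmNRT2.4-1* and *GmNRT2.5*, control 2 was the lowest control. This gene, too, passed the filter on low counts only through its control libraries. Its log2 fold change was -4.50 (SE 0.69, adjusted p 0.0382 by edgeR), and among the fits that left out a library it was called only without control 2 (adjusted p 0.00435). The other called gene was Glyma.06G017800 (protein NLP4-like, of the NIN-like family that in *Arabidopsis* activates nitrate-responsive genes), with 36.5, 35.8 and 44.9 CPM in control 1 to 3 and 16.0, 14.5 and 13.6 CPM in acid 1 to 3. The groups did not overlap, the log2 fold change was -1.41 (SE 0.19, adjusted p 0.0232 by edgeR), and this gene too was called only without control 2 (adjusted p 0.0124) when a library was left out.

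Nitrate and nitrite reductase genes, which act on nitrate after its uptake, had 5 genes tested and none called by edgeR. All 5 had a positive log2 fold change, with a median of 0.96, and 1 had an unadjusted p under 0.05 and was called higher by DESeq2. Their summed FPKM was 184, 1785 and 747 in control 1 to 3 and 1895, 1562 and 1411 in acid 1 to 3. Control 2 thus lay among the acid libraries in the nitrate reduction genes, whereas in the NRT2 sum (1145 FPKM) it lay with control 3. The LBD37 to LBD39 genes and the BT genes had median log2 fold changes of 0.78 over 6 genes and 1.20 over 5 genes. Their *Arabidopsis* relatives lower the expression of nitrate uptake genes. In each list 1 tested gene was below 0, Glyma.20G133000 (LBD) at -1.15 and Glyma.04G190900 (BT) at -0.81. None was called by edgeR, and DESeq2 called 1 higher in each list and 1 lower among the LBD genes. In either direction, 5 LBD genes and 3 BT genes had an unadjusted p under 0.05 by edgeR. Of all genes tested, 4.21% were higher and 7.61% lower at this threshold. Kinases related to CIPK8 and CIPK23, the CLC antiporter, SLAH channels and enzymes of glutamine and glutamate synthesis had 5, 1, 4 and 10 genes tested, none called by edgeR, with 2 at an unadjusted p under 0.05 and 1 called by DESeq2, a kinase that was higher.

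**Figure D4:**
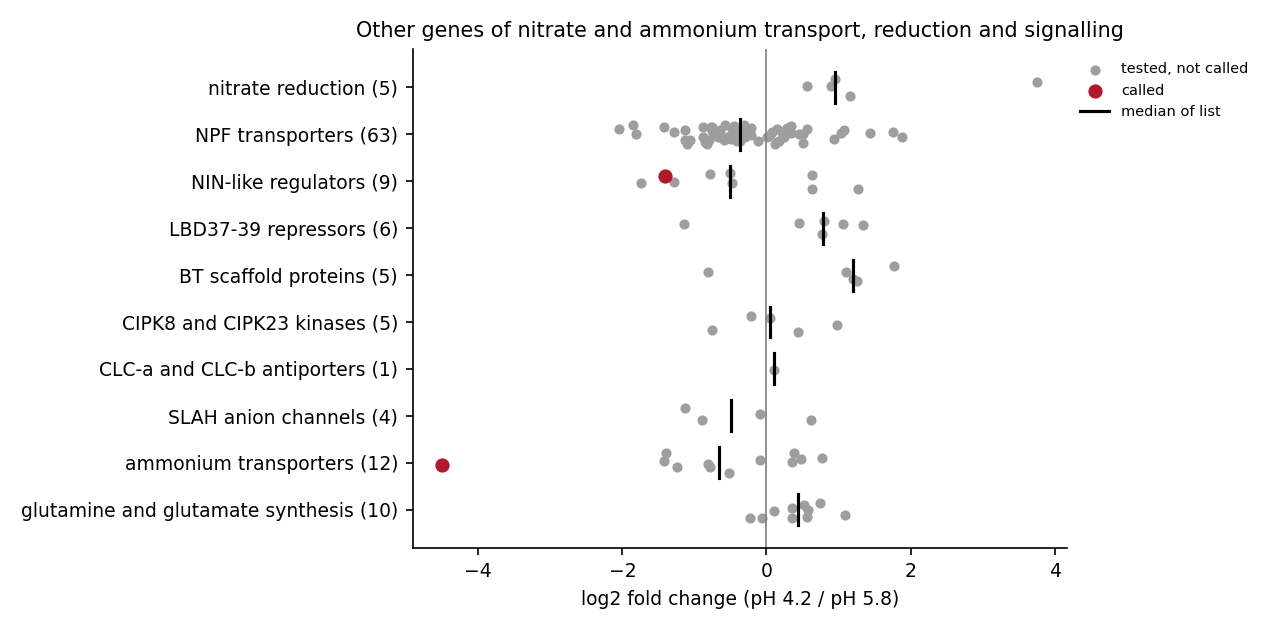
Log2 fold change (pH 4.2 over pH 5.8) of the 120 tested genes of 10 lists, each with its number tested in brackets (grey, not called; red, called; black line, median of the list). The 2 called genes, at -1.41 and -4.50, lie in the lists of NIN-like regulators and ammonium transporters, and all 5 nitrate reduction genes lie above 0.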

How the data were processed

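Per the study's methods, the authors filtered reads of the BGISEQ-500 platform, mapped them to Williams82.a2.v1 with HISAT, added transcripts rebuilt with StringTie to the reference, mapped reads to it with Bowtie2 and estimated expression with RSEM (versions not given in the sources used here). The deposited files hold expected counts per gene, which are not normalized, and the authors' FPKM, which divides them by transcript length and library total. The labels name CTAB-PBIOZOL for RNA extraction and the methods an RNeasy kit. Annotation columns were used for descriptions and orthology terms. RefSeq symbols (Glycine_max_v4.0) were matched through protein accessions for all 7 members, and no coordinates are given.

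Expected counts were rounded and genes missing from a library set to 0. All 6 libraries were fitted in R 4.3.3 with edgeR 4.0.16 (filterByExpr, TMM, robust quasi-likelihood fit, Benjamini-Hochberg adjustment over all genes tested, adjusted p under 0.05 and at least 2-fold). Alternatives were DESeq2 1.42.0, RLE size factors, no filter, a mean count of at least 50, limma 3.58.1 with a trend on log2 of FPKM plus 0.1 or plus 1, the replicate block and each library left out in turn. Intervals cover the spread between libraries, and the limit of 3 counts covers counting error only. Replicate libraries differed by more than counting noise (chi-square per degree of freedom 7.51 to 32.7).

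Members and lists were chosen with earlier results of these data known. Named are all members, the 2 genes sharing only the orthology term, the called genes of the lists and the 5 genes most alike. The word patterns of the NIN-like list and of the list of glutamine and glutamate synthesis were corrected after values were seen, because they matched unrelated names (in the second, folate enzymes), and a list of HHO/NIGT1 repressors matched 0 genes, leaving 10 of 11 lists. The nodule marker word matched 2 genes, both leghemoglobin reductases, neither called. The qRT-PCR measurements were not analysed here.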

Additional observations from a re-analysis of the deposited data

How the results depend on the processing

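The 4 decreases of NRT2 genes were called under DESeq2, RLE size factors, no filter, a mean count of at least 50, both limma-trend fits and the replicate block, and 0 members were called higher in any of the 13 alternatives. The count of members called lower ranged from 1 to 4 when a library was left out, with 1 without acid 1 and 1 without acid 2, in each case *GmNRT2.4-1*, and 3 without acid 3. No direction was reversed. Of the 13 alternatives, the call was the same in 13 for *GmNRT2.4-1* and for both NRT3-type genes, in 11 for *GmNRT2* and for *GmNRT2.5*, and in 10 for *GmNRT2.4-2*, and the others had an adjusted p over 0.05. *GmNRT2.4-1* passed the filter on low counts only through its control libraries, so its steadier call is no added support. The number of all genes called, 187, was 1060 with DESeq2, 323 without a filter and 61 with the replicate block, and ranged from 7 (without acid 2) to 1122 (without control 2) when a library was left out. The called genes in the pathway lists, 2 in all, were 14 with DESeq2, 4 without a filter, 1 with a mean count of at least 50, 1 with limma-trend on log2(FPKM + 0.1), 0 with the replicate block, and 0 to 15 when a library was left out. Deviations from the group means correlated at -0.393 to -0.047 over 3 pairs of same-numbered libraries, and at -0.335 to 0.522 between differently numbered ones. Within a group of 3 libraries such deviations must balance out, so these values cannot decide whether the replicate numbers pair the libraries. With the replicate block all 4 calls were kept, at adjusted p 0.0489 for *GmNRT2.4-2* and *GmNRT2*, 0.00517 for *GmNRT2.4-1* and 0.0268 for *GmNRT2.5*, while 0.125% of all genes tested were called lower. The log2 fold change of *GmNRT2.4-1* was -6.35 with limma-trend on log2(FPKM + 1), a scale that understates the change of low genes. Depth limits Glyma.08G284000, with at most 5 counts in a library. With 3 pooled libraries in each pH-treatment, p-values rest on the spread between these libraries.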
